A study of Mus musculus with 15 samples.

Results

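Alveolar luminal cells (ALs) of the pregnant mouse mammary gland were compared with 4 epithelial populations of the virgin gland, and the genes described here are those whose 3 AL arrays all lay beyond all 12 virgin arrays. Of 12143 genes tested, 2878 met this rule, 1569 of them above every virgin array and 1309 below every one. RNA of the 5 sorted populations was read on Affymetrix mouse whole-genome arrays, with 3 arrays per population, and all mice were adult C57BL/6 females. ALs came from midgestation Wap-Cre;R26Y females and were sorted as lineage-negative, YFP-positive cells. Alveolar progenitors (ALPs) were lineage-negative, YFP-positive cells of the same genotype from virgin females. The remaining virgin populations came from wild-type mice and were sorted by surface markers: the MaSC-enriched basal fraction (MaSCs; CD24+CD29hi), luminal progenitors (LPs; CD24hiCD29+CD61+) and mature luminal cells (MLs; CD24hiCD29+CD61-).

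Wap-Cre makes Cre recombinase from the promoter of the whey acidic protein gene, and R26Y is a YFP reporter at the Rosa26 locus that stays on in the descendants of a cell that once made Cre. The YFP mark therefore records past activity of the Wap promoter. Against the wild-type populations, pregnancy, genotype and sorting scheme differed together and cannot be told apart. ALPs shared genotype and mark with ALs and differed from them by pregnancy, though not by this alone. Their levels of endothelial and fibroblast markers, given below, were also higher than in ALs. Whether the AL and ALP samples were taken from different mice is not stated, and p-values then rest on a spread between arrays that may be technical.

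In pregnancy, prolactin acting through Jak2 and Stat5, together with progesterone and its mediator RANK ligand, is known to drive luminal cells to divide and to build milk-secreting alveoli. Elf5 and Stat5 are transcription factors of this alveolar programme, whereas receptors for oestrogen and progesterone mark the hormone-sensing mature luminal cells. Caseins and whey acidic protein are known to appear before alpha-lactalbumin and before copious secretion.

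Array medians ranged from 136.8 to 209.9 intensity units, and the deposited values carry no detection call, so a low intensity cannot be separated from background here. ALP replicate 3 stood apart, with an intensity of 2795 for the leukocyte gene Ptprc against 67.2 to 93.6 in the 3 AL arrays and 11.2 to 58.8 in the other virgin arrays. The luminal label was checked on 13 keratin and identity genes, whose mean log2 level was 13.0 to 13.1 in ALs, 13.2 to 13.4 in the luminal virgin populations and 12.4 to 13.0 in the basal MaSCs. ALs thus lay below the luminal virgin arrays and close to the highest MaSC array, so this list did not clearly set ALs apart from basal cells. Markers of other cell types were present at low to intermediate levels: the mean over 22 basal and myoepithelial genes was 9.77 to 10.1 in ALs, 6.69 to 7.96 in LPs and MLs, 8.81 to 10.9 in ALPs and 12.5 in MaSCs. Acta2, the smooth muscle actin of myoepithelial cells, was read at 6946, 8619 and 7717 in ALs, at 262 to 626 in LPs and MLs, and at 16364 to 16933 in MaSCs. Over 13 immune genes the mean was 8.98 to 9.47 in ALs against 6.49 to 8.31 in the wild-type arrays and 8.48 to 13.0 in ALPs. Over 11 endothelial genes it was 7.85 to 8.15 in ALs, 6.03 to 6.71 in the wild-type arrays and 8.55 to 11.5 in ALPs. Over 18 fibroblast genes it was 10.4 to 11 in ALs, 10.9 to 11.7 in LPs, 5.74 to 6.4 in MLs, 9.17 to 9.5 in MaSCs and 11.3 to 13.0 in ALPs. Over 4 adipocyte genes it was 10.1 to 10.4 in ALs, 8.49 to 9.39 in the wild-type arrays and 10.2 to 11.1 in ALPs. Over 2 erythroid genes it was 9.76 to 11.4, 6.21 to 10.5 and 9.33 to 11.7. No gene of the basal, immune, endothelial, fibroblast or erythroid lists was beyond the virgin arrays. These include MaSCs and ALP replicate 3, which had the highest means of such markers, so the rule cannot show other cells in ALs. By the limma test described below, 8 of 22 basal, 2 of 13 immune, 4 of 11 endothelial and 6 of 18 fibroblast genes were higher. Lower were 3 basal and 1 endothelial gene. The share higher over all genes was 26.4%. The part of such cells in the results below was not tested. In sorted bulk RNA, fewer cells of a type and less RNA per cell cannot be told apart.

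Genes were compared by the difference between AL and the mean of the 4 virgin population means on the log2 intensity scale, in a limma fit with Benjamini-Hochberg adjustment over all genes. By this test 6332 genes (52.1%) passed, 3201 (26.4%) higher and 3131 (25.8%) lower in ALs. In the same fit, 18.7% of genes were higher and 21.2% lower in ALs than in ALPs, 21.3% and 24.2% than in LPs, 28.7% and 24.8% than in MLs, and 31.3% and 28.1% than in MaSCs. The 1569 genes above all virgin arrays were 12.9% of those tested and the 1309 below were 10.8%. The rule uses the same values as the test, so the separation is a description. All but 11 of the separated genes passed the test, and those 11 lay above. The same rule set 1161 genes above and 979 below for MaSCs, 551 and 215 for LPs, 1363 and 1506 for MLs, and 94 and 80 for ALPs. Of the 1569 genes above, 174 would not have passed the filter on dim values with their virgin arrays alone. Fewer than 3 of their virgin arrays exceeded the array median, so the filter favoured a difference in such genes. In all, 287 tested genes were of this kind, and not all of them separated. Wap, Csn2 and Tnfsf11 are among the 174, and no p-value is given for them. The median log2 difference was 0.98 for genes above and -1.05 for genes below, beside 0.01 over all genes tested. The counts of the gene lists below are to be read against the shares of 26.4% higher, 25.8% lower, 12.9% above and 10.8% below.

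**Figure D1:**
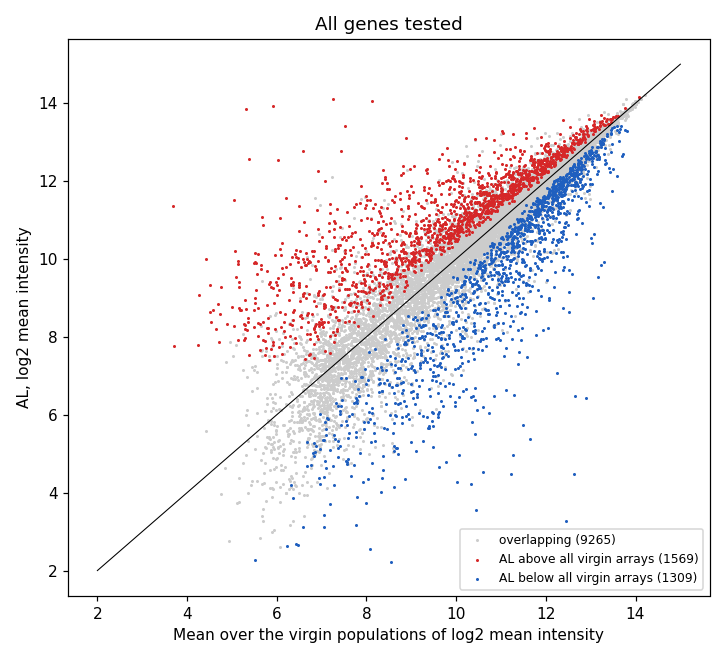
AL log2 mean intensity against the mean over the 4 virgin populations of log2 mean intensity, 1 point per gene tested. The 1569 red genes (AL above all virgin arrays) and the 1309 blue genes (AL below) lie on either side of the line of equality, among 9265 overlapping genes in grey.

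**Figure D2:**
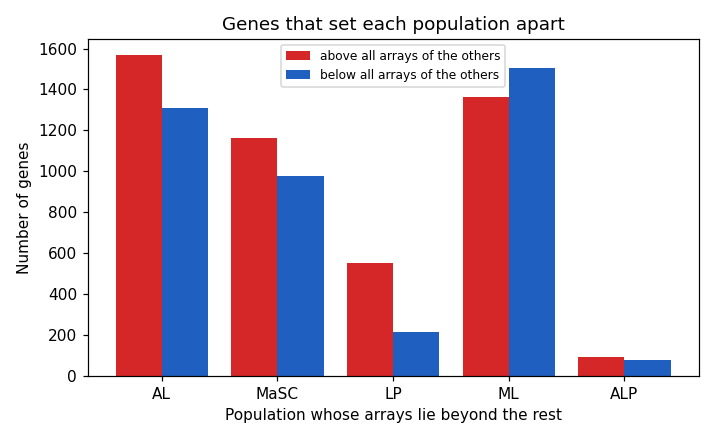
Number of genes for which the 3 arrays of one population lie above (red) or below (blue) all 12 arrays of the others. ALs had 1569 above and 1309 below, and ALPs 94 and 80.

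Most separations were narrow. The gap between the nearest AL array and the nearest virgin array, taken after adding 16 to each intensity, was at least 2-fold for 275 genes above and 169 below and at least 4-fold for 101 and 28. At the edge of the rule, the lowest AL array of Mrpl51 was at 11059 against a highest virgin array of 11056, while Zfp207 missed it with 4357 against 4359. On the lower side Lrp5 was just inside, with a highest AL array of 1049.1 against a lowest virgin array of 1049.3, and Slc39a6 just outside, with 2583 against 2582. By population mean, the virgin population nearest to ALs was MLs for 578 of the genes above, LPs for 505, ALPs for 265 and MaSCs for 221. For genes below it was LPs for 422, MLs for 331, ALPs for 280 and MaSCs for 276. Other probe sets of the same genes gave a partial second reading. Of 1099 such probe sets for genes above, 641 were also above all virgin arrays (58.3%) and 15 were below. Of 1282 for genes below, 626 were also below (48.8%) and 36 were above. Among 75 named genes beyond the virgin arrays that had another probe set, 41 had all of these beyond in the same direction and 34 had 1 or more that overlapped.

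Milk protein genes included some of the widest gaps above the virgin arrays. Wap, the whey acidic protein gene whose promoter drives the mark, was read at 4811, 8717 and 4648 in the AL arrays, against 12.7 to 146 (median 33.3) in the virgin arrays. Its log2 difference was 7.16 ± 0.28 (SE). ALPs, which carry the same mark, had Wap at 39.4 to 98.6, so the present level of Wap split the marked populations. Csn1s1, the alpha-S1 casein gene, was at 14886, 16126 and 15939 in ALs and at 7.50 to 562 in virgin arrays. Csn2, the beta-casein gene, was at 14252, 15065 and 14805 in ALs and at 1.12 to 1198 (median 32.6) in virgin arrays, the highest being an ALP array. The Csn2 difference of 8.99 ± 0.82 came to 7.77 with 16 added to each intensity. A second Csn2 probe set also separated, with a log2 difference of 9.58. Csn1s2a stood at 16577 to 17281 in ALs and at no more than 1587 elsewhere. Csn1s2b stood at 1023 to 1262 in ALs against at most 259.

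Of 17 tested genes of milk proteins and the milk fat globule membrane, 15 were higher, 1 was lower and 9 were above all virgin arrays (52.9%), with a median log2 difference of 1.40. Of these 17 genes, 4 passed the filter on dim values only with the help of their AL arrays, and of the other 13, 11 were higher and 6 above. Glycam1, a mucin-like whey protein, was at 16456, 18575 and 17630 in ALs. Its virgin arrays were mostly dim (median 33.7), but ALP replicate 1 reached 6697 and ALP replicate 3 reached 1022. Lao1, an L-amino acid oxidase of milk, was at 1021, 524 and 677 in ALs and at 24.8 to 47.8 in virgin arrays. Xdh and Muc15, parts of the fat globule membrane, were above by narrow gaps, with log2 differences of 1.37 ± 0.14 and 1.22 ± 0.23. Against ALPs alone neither passed (limma adjusted p = 0.143 for Xdh and 0.124 for Muc15).

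Other milk genes overlapped the virgin populations. Csn3, the kappa-casein gene, was at 15291 to 17092 in ALs and already at 9381 to 17323 in virgin arrays, with LPs at 17076 ± 235 (SD, n = 3). Wfdc18 was likewise high everywhere (9401 to 16975 in virgin arrays). The brightest tested gene of each array lay between 18251 and 19546, so these probe sets were read near the top of the scale. Lalba, which encodes alpha-lactalbumin and permits lactose synthesis, was at 220.4, 666 and 221 in ALs and overlapped ALPs, whose highest array was at 369.7. Btn1a1, butyrophilin, was at 8195 to 9490 in ALs and up to 8974 in ALPs, while both its other, dimmer probe sets were above all virgin arrays (log2 differences 2.42 and 3.26). Ltf, lactoferrin, was the 1 gene of the list that was lower, at 1989, 4558 and 2446 in ALs against 2507 to 11079 (log2 difference -1.47 ± 0.32; limma adjusted p = 0.00236).

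**Figure D3:**
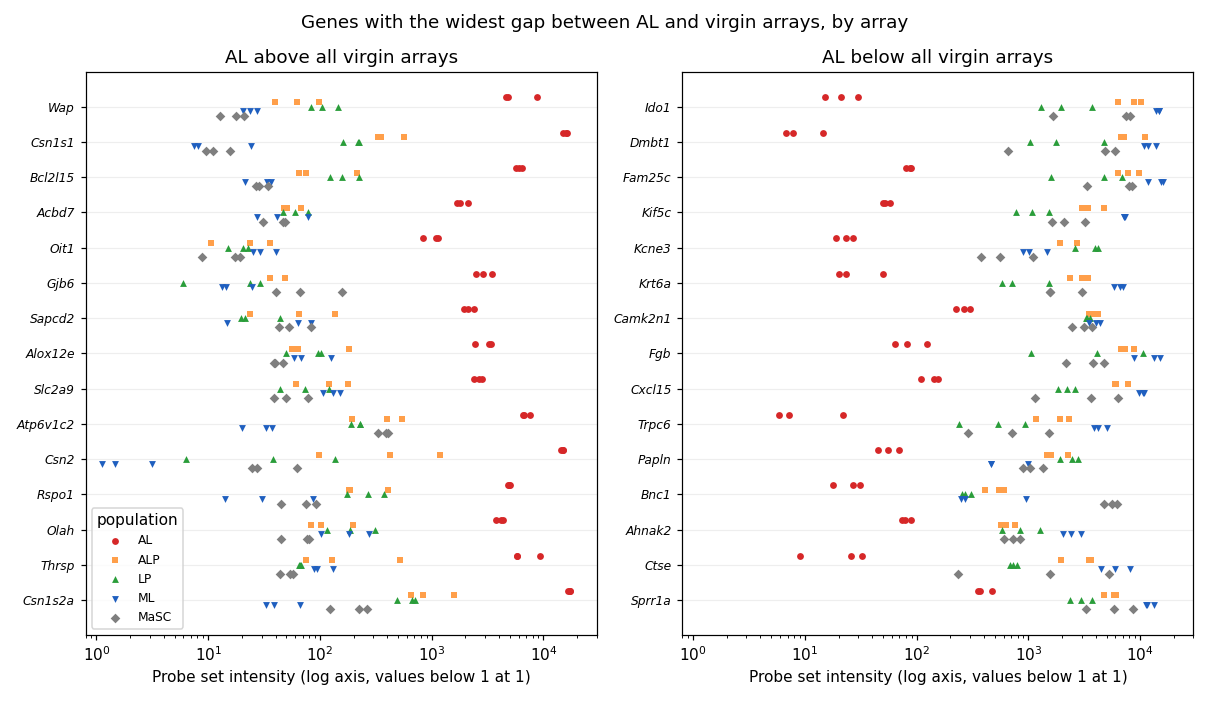
Intensity on each of the 15 arrays (log axis) for the 15 named genes with the widest gap above (left) and below (right) the virgin arrays, with 1 point per array and 1 symbol per population. AL points (red) stand clear of every virgin point in each row, as for Wap (4648 to 8717 against at most 146) and Ido1 (15.1 to 30.1 against at least 1300.4).

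To show the sequence upstream of genes that moved together, the 250 bases before the annotated start were taken from RefSeq (GRCm38.p6). Capitals mark a gamma-interferon activated site, TTCNNNGAA, the letters read by Stat5. Sequences are written 5′ to 3′ on the strand of the gene. Csn2 lies on the minus strand of chromosome 5 (chr5:87699426-87699675), Csn1s1 on the plus strand of the same chromosome (chr5:87665958-87666207), Glycam1 on the minus strand of chromosome 15 (chr15:103565082-103565331) and Wap on the minus strand of chromosome 11 (chr11:6638650-6638899). The site starts 93 bases before the annotated start of Csn2, 100 before that of Csn1s1 and 145 before that of Glycam1, and the Wap window holds none.
Csn2: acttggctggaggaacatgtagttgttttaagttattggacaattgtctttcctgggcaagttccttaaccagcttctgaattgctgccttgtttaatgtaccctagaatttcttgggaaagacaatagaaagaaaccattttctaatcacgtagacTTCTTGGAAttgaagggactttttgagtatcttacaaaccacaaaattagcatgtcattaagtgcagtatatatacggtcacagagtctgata
Csn1s1: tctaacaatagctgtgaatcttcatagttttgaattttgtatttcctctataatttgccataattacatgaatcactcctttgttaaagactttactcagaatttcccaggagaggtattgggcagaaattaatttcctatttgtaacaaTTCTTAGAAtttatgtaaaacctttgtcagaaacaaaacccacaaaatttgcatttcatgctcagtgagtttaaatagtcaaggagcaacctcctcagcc
Glycam1: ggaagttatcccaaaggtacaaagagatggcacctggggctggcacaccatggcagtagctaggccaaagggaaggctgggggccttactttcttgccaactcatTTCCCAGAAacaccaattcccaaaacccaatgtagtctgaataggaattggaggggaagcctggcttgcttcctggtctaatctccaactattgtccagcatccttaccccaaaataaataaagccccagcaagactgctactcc
Wap: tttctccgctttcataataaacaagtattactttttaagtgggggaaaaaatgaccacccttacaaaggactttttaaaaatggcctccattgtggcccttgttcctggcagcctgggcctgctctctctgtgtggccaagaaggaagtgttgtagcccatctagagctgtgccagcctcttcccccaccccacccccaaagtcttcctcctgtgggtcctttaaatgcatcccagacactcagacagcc

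Of the 9 milk genes above all virgin arrays, 6 had a promoter in the table, and 3 of these 6 windows hold TTCNNNGAA, which is its own reverse complement. The same letters were found in 6.27% of windows of all genes above, 5.31% of those below, 5.8% over all genes tested and 7.02% of all 32851 promoters. A match is a description of the letters and not of a bound site.

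Most lipid synthesis and uptake genes rose in ALs. Of 32 tested, 22 were higher and 2 lower, 12 were above all virgin arrays (37.5%) and 1 was below, with a median log2 difference of 0.70. Thrsp (Spot 14), which promotes fatty acid synthesis, was at 5817, 9392 and 5739 in ALs and at 43.8 to 519 in virgin arrays. Thrsp passed the filter on dim values only with the help of its AL arrays. Of the other 31 genes, 21 were higher (67.7%) and 11 above (35.5%). Olah, the thioesterase that releases medium-chain fatty acids, was at 4161, 4376 and 3737 against 45.0 to 311. Fabp3, a fatty acid-binding protein, was at 10485, 13791 and 8467 in ALs, and its nearest virgin arrays were MaSCs at 847 to 1143. Its other probe set overlapped (0.42), and its log2 difference of 5.91 became 3.16 when all its probe sets were averaged. Acss1, an acetyl-CoA synthetase, was 3.09 ± 0.33 higher on the log2 scale, and the desaturase Fads1 was 1.73 ± 0.17 higher. Elovl6, a fatty acid elongase, was at 2559 to 3049 in ALs against 676 to 2163. Srebf1, a transcription factor of lipid synthesis, was at 4118, 5707 and 4374 against 1654 to 3475. Dgat2, which makes triglyceride, went the other way, at 970 to 1116 in ALs and 1174 to 9127 in virgin arrays. Against LPs alone Dgat2 did not pass (limma adjusted p = 0.0574), and its other probe set overlapped (-1.81).

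Supply genes around lipid and protein synthesis changed less evenly. Of 20 cholesterol synthesis genes, 9 were higher, 2 lower, 4 above and 1 below, with Stard4 at 2560 to 2687 in ALs against 124 to 1421 and Msmo1 below at 1265 to 1970.4 against 2201 to 7340. Of 25 genes of glycolysis, the pentose phosphate pathway and lactose supply, 10 were higher and 5 lower, and the pentose phosphate enzymes Taldo1 (0.88 ± 0.11), Tkt (0.44 ± 0.07) and Pgls (0.60 ± 0.15) were all above. Of 26 amino acid transport and synthesis genes, 8 were higher, 8 lower and 6 above. The serine and glycine enzymes Phgdh, Psat1 and Shmt1 were among the 6, with Shmt1 at 3449, 3358 and 3509 against 788 to 1602. Slc6a14, an amino acid transporter, was at 1042 to 1196 in ALs against 2.50 to 255. Its log2 difference of 5.07 fell to between 2.31 and 2.44 in several settings, where another of its probe sets was the brighter one. Slc6a14 and Slc38a3 passed the filter on dim values only with the help of their AL arrays. Of the other 24 genes, 6 were higher (25%) and 4 above (16.7%). Over all genes that passed with their virgin arrays alone, 25% were higher and 11.8% above. Of 19 aminoacyl-tRNA synthetases, 6 were higher (31.6%) and 3 lower (15.8%). Of 47 genes of ER entry and vesicle transport, 10 were higher (21.3%) and 3 lower (6.38%). Of 30 ER folding and unfolded protein response genes, 6 were higher and 6 lower (20% each), beside 26.4% and 25.8% over all genes. The ER stress sensors Atf6 (-0.78 ± 0.08) and Ern1 (-1.21 ± 0.13) were below all virgin arrays. Of 2 other Atf6 probe sets, 1 was below (-0.60) and 1 overlapped (-0.19). The third sensor, Eif2ak3, was above (0.74 ± 0.19) by a gap of a few units, 1732 against 1723. Against LPs, MLs and ALPs alone Eif2ak3 did not pass (limma adjusted p = 0.109, 0.442 and 0.112).

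Most respiratory chain and ATP synthase genes rose by small amounts. Of 37 tested, 26 were higher, none was lower, and 19 were above all virgin arrays (51.4%), with a median log2 difference of 0.28. Ndufs1 of complex I was at 4518, 4547 and 4267 in ALs against 2627 to 3560, and Uqcrc2 of complex III was at 10040, 10046 and 9708 against 6269 to 7868. By population mean, MLs were nearest to ALs in 18 of the 19. With each array centred on its median, the number above all virgin arrays dropped from 19 to 6. Of 19 cytosolic ribosomal proteins, 1 was higher and 2 were above.

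**Figure D4:**
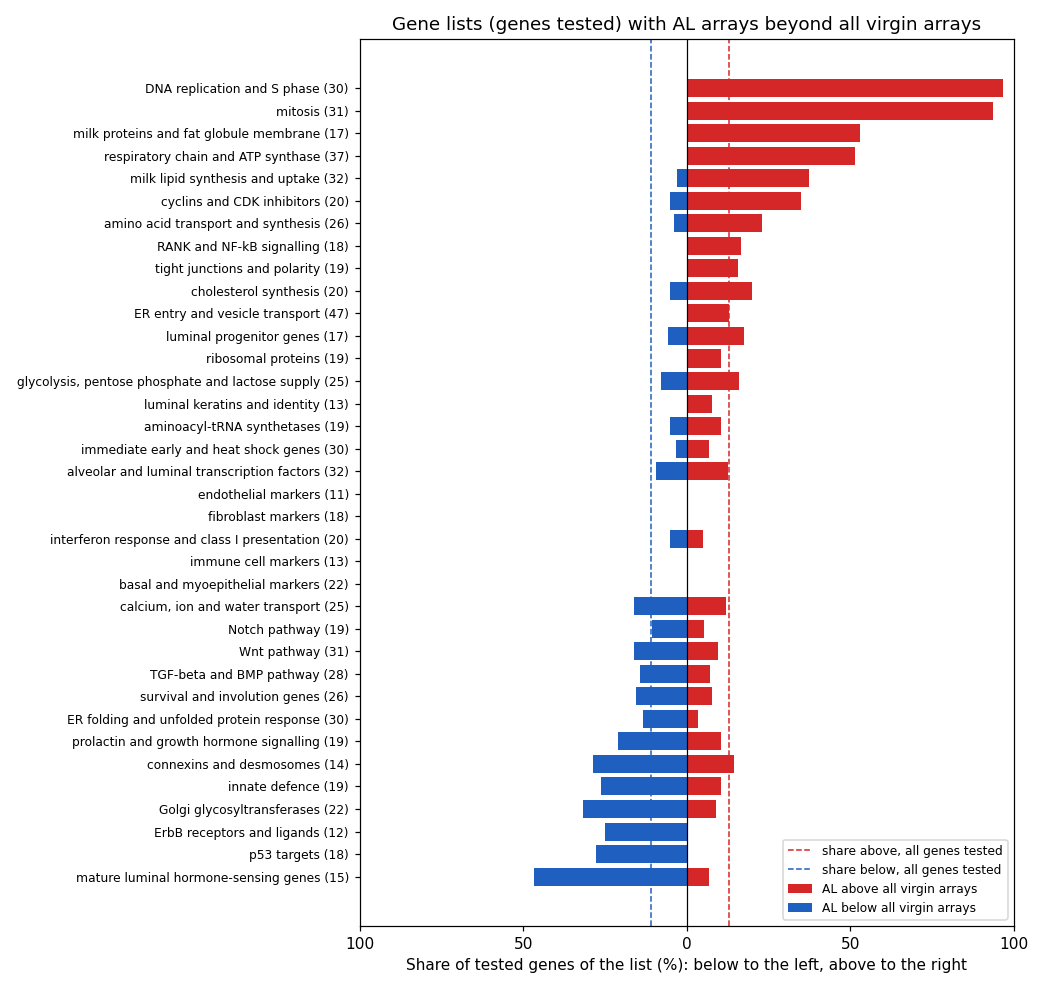
Share of the tested genes of each list with AL arrays above (red, right) or below (blue, left) all virgin arrays, for lists with at least 10 genes tested (number in brackets). Dashed lines give the shares over all genes tested, 12.9% above and 10.8% below. Replication (96.7%) and mitosis (93.5%) lie farthest right, and mature luminal hormone-sensing genes (46.7% below) farthest left.

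Proliferation genes separated ALs from the virgin gland almost without exception. All 31 tested mitosis genes were higher, 29 of them above all virgin arrays (93.5%), with a median log2 difference of 3.37. All 30 tested DNA replication and S phase genes were higher, 29 above (96.7%), with a median of 1.55. Without the 5 mitosis genes and the 1 replication gene that passed the filter on dim values only with the help of their AL arrays, 24 of 26 and 28 of 29 were above. Bub1, Ttk and Cenpe, given next, are among these 5, so the filter favoured a difference in them. Bub1, a kinase of the spindle checkpoint, was at 2151, 1707 and 2080 in ALs and at 14.8 to 175 in virgin arrays. Ttk, another checkpoint kinase, was at 1351, 1033 and 1250 against 40.4 to 132. Cenpe, a kinetochore motor, was at 1393, 1176 and 1099 against 20.3 to 143. Mki67, the Ki-67 gene, was at 5443, 4903 and 4731 in ALs and at no more than 877 elsewhere. Among replication genes, Pole, the catalytic subunit of DNA polymerase epsilon, was at 1630, 1360 and 1581 against 53.2 to 312. Cdc45, part of the replicative helicase, was at 1280, 1037 and 1371 against 60.9 to 245. Chaf1b, a histone chaperone of replication, was at 1247, 1167 and 1389 against 73.7 to 299. In all of these the virgin arrays differed among themselves by over 3-fold. The genes that overlapped were Pcna (8313 to 9103 in ALs, up to 9028 in MaSCs), Aurka and Kif2c, both of the latter with their highest virgin arrays among MLs.

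Cell cycle control genes followed in part. Of 20 cyclins, CDKs and CDK inhibitors, 10 were higher and 1 lower, with 7 above and 1 below. E2f1, which activates replication genes, was at 770, 826 and 824 in ALs against 35.8 to 335. Rbl1 (1.58 ± 0.20), Ccne2 (1.10 ± 0.10), Ccne1 (0.89 ± 0.19), Cdk6 (1.02 ± 0.18), Cdk4 (0.63 ± 0.10) and E2f2 (2.39 ± 0.84) were also above. E2f2 passed the filter on dim values only with the help of its AL arrays. Of the other 19 genes, 9 were higher (47.4%) and 6 above (31.6%). Cdkn1a, the CDK inhibitor p21, was the 1 gene below, at 2702, 2266 and 2931 in ALs against 5630 to 10544. Its difference was -1.60 ± 0.10 (limma adjusted p = 4.33e-07), and a second probe set was below as well (-1.84). Cdkn1a is also a target of p53. Of 18 p53 targets tested, 3 were higher and 8 lower, and 5 were below all virgin arrays: Cdkn1a, Zmat3, Aen, Mdm2 and Perp.

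Upstream sequences of proliferation genes are shown for Bub1 and Ccnb2, with CCAAT boxes in capitals (CCAAT, or ATTGG on the other strand), and for Mcm5, with an E2F site in capitals (TTTGGCGC, here on the other strand). Bub1 lies on the minus strand of chromosome 2 (chr2:127831860-127832109), Ccnb2 on the minus strand of chromosome 9 (chr9:70421555-70421804) and Mcm5 on the plus strand of chromosome 8 (chr8:75109259-75109508). Ccnb2 (4405, 4108 and 4215 in ALs against 60.9 to 820.3) and Mcm5 (4008, 3946 and 4205 against 271 to 1345) were chosen after their values and matches were seen.
Bub1: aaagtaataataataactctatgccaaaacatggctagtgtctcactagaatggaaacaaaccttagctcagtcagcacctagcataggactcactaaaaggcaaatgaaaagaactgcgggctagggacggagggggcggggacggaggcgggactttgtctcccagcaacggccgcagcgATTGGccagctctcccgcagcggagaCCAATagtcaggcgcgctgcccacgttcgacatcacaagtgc
Ccnb2: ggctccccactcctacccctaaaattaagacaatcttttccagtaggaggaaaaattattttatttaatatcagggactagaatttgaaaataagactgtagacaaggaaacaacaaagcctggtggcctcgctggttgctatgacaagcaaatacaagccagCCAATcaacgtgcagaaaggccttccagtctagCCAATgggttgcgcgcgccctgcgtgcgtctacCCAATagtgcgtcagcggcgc
Mcm5: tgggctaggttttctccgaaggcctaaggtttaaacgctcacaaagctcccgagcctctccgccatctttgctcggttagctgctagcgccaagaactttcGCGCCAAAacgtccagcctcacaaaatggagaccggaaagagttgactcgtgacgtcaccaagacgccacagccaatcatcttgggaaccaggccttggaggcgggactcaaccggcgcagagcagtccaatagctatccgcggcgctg

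CCAAT, searched on both strands, was in 21 of 27 windows of mitosis genes above all virgin arrays (77.8%) and in 55.2% of those of replication genes. It was in 41% of windows of all genes above, 30.8% of those below and 34.9% over all genes tested. The letters TTTGAA, which lie in cell cycle homology regions, were in 37% of the mitosis windows and 10.6% over all genes tested. An E2F site, TTTCCCGC or TTTGGCGC on either strand, was in 17.2% of replication windows, none of the 27 mitosis windows and 2.4% over all genes tested. TATAAA was in 6.33% of windows of genes above, 6.58% of those below and 6.67% over all genes tested. These 4 motifs were added after the data had been examined.

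Genes of mature luminal hormone-sensing cells were lower in ALs. Of 15 tested, 11 were lower and 2 higher, and 7 were below all virgin arrays (46.7%), with a median log2 difference of -1.92. Pgr, the progesterone receptor, was at 529, 427 and 584 in ALs, at 1343 to 5376 over the MaSC and LP arrays, and higher still in MLs (8576 ± 583; SD, n = 3). Its difference was -3.03 ± 0.31 (limma adjusted p = 9.66e-06). Both other Pgr probe sets were lower in the mean but overlapped. Prom1 was at 354 to 545 in ALs against 1519 to 9662. Wnt5a, a non-canonical Wnt ligand, was at 213, 305 and 204 against 658 to 5447. Tbx3, a transcription factor, was at 919 to 992 against 1774 to 5031, and Greb1, an oestrogen receptor target, was at 30.2 to 42.4 against 85.2 to 2490. By population mean, MLs stood highest and LPs were nearest to ALs for both Pgr and Wnt5a. Esr1 (-0.86 ± 0.22), Foxa1 (-1.92 ± 0.33) and Cited1 (-1.92 ± 0.54) were lower but overlapped virgin arrays.

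Tnfsf11, which encodes RANK ligand and belongs to the same list, ran against it. It was at 754, 923 and 1145 in ALs and at 12.7 to 119 in virgin arrays, MLs included (log2 difference 4.83 ± 0.38). Its receptor gene Tnfrsf11a (RANK) was also above, at 562, 796 and 589 against 22.6 to 206 (2.88 ± 0.29), while its other probe set overlapped (1.92). Of 18 genes of RANK and NF-kB signalling, 10 were higher, none was lower and 3 were above, the third being Traf2. Tnfsf11 and Tnfrsf11a passed the filter on dim values only with the help of their AL arrays. Of the other 16 genes, 8 were higher (50%) and 1 was above (6.25%). Over all genes that passed with their virgin arrays alone, the shares were 25% higher and 11.8% above. Without AL replicate 2, the 10 higher genes of the full list became 5. Without ALP replicate 3, the 3 above became 6.

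Prolactin and growth hormone signalling changed in both directions. Of 19 tested genes, 4 were higher and 11 lower, with 2 above and 4 below. Stat5b was at 3806, 3737 and 3579 in ALs against 447 to 3170, and its second probe set was above too (2.49). Cish, a Stat5 target that dampens cytokine signals, was at 2949, 3728 and 2974 against 954 to 2872. Against ALPs alone, neither Stat5b (0.45, limma adjusted p = 0.23) nor Cish (0.30, adjusted p = 0.195) passed. Stat5a was higher (0.34 ± 0.09), but MLs reached 7962 and overlapped ALs at 7171 to 7401, and its other probe set was above (1.38). Socs3, an inhibitor of Jak-Stat signals, was below, at 1313, 1659 and 1365 against 2463 to 8309 (-1.73 ± 0.19; limma adjusted p = 1.5e-05), and both its other probe sets were below too. The brightest probe sets of Socs4 (-0.96 ± 0.07) and Socs6 (-0.75 ± 0.13) were below, but the 3 others of Socs4 (-0.03 to 0.48) and both others of Socs6 (-0.68 and -0.13) overlapped. Ghr was below by a narrow gap, but its difference of -0.29 turned to 0.13 when all its probe sets were averaged. Jak2 (-0.52 ± 0.11) and Igf1r (-0.94 ± 0.22) were lower and overlapped. Prlr was not analysed here.

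Among 32 alveolar and luminal transcription factors, 8 were higher (25%) and 10 lower (31.2%), 4 were above (12.5%) and 3 below (9.38%). These shares lie near those over all genes tested (26.4%, 25.8%, 12.9% and 10.8%), so the members are described singly. Elf5 was at 9177, 11066 and 9881 in ALs, at 4955 ± 625 in ALPs and 4721 ± 625 in LPs (SD, n = 3), and at 613 ± 621 in MaSCs. Its difference from the virgin mean was 2.41 ± 0.41 (limma adjusted p = 0.000472). Against ALPs alone it was 1.02, which did not pass (adjusted p = 0.139), and against the virgin arrays taken as 1 group it did not pass either (adjusted p = 0.0719). A second Elf5 probe set was above as well (3.72). Nr3c1, the glucocorticoid receptor gene, was above by a gap of a few units (5583 against 5577), with its 4 other probe sets overlapping (0.42 to 0.87), and Grhl1 by a small one (5261 against 5094). Against LPs, MLs and ALPs alone Grhl1 did not pass (limma adjusted p = 0.322, 0.698 and 0.259). Hif1a, with Pgr and Tbx3, was below, at 5641 to 5803 against 6413 to 9102. Against LPs alone Hif1a did not pass (limma adjusted p = 0.139). Of 3 other Tbx3 probe sets, 2 were below and 1 overlapped (-1.14). Gata3, Cebpb, Sox9, Klf4, Klf5 and Myc were among the 14 that did not pass, with log2 differences between -0.14 and 0.08. Id3 was lower (-1.71 ± 0.33) but overlapped LPs.

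Runx1 was the 1 gene of 8 tested Runx factors and partners that passed the test. It was at 1388, 967 and 1146 in ALs, 3375 ± 342 in ALPs, 3397 ± 249.9 in LPs, 4908 ± 498 in MLs and 6297 ± 433 in MaSCs (SD, n = 3). No AL array reached the lowest virgin array, at 3093. The difference from the virgin mean was -1.91 ± 0.11 (3.75-fold lower; limma adjusted p = 1.38e-07), and from ALPs alone -1.54 (adjusted p = 8.76e-06). Of 4 other Runx1 probe sets, 3 were also below all virgin arrays and 1 overlapped. Cbfb, the partner that stabilises Runx proteins on DNA, was at 4353 to 5214 in ALs against 4452 to 6488 (-0.20; adjusted p = 0.118). Cbfb passed with array weights, without MaSCs and without MaSC replicate 3, and Cbfa2t2 and Cbfa2t3 passed in some other settings, as higher. Runx2 was not analysed here, and Runx3 did not reach the level required for testing.

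**Figure D5:**
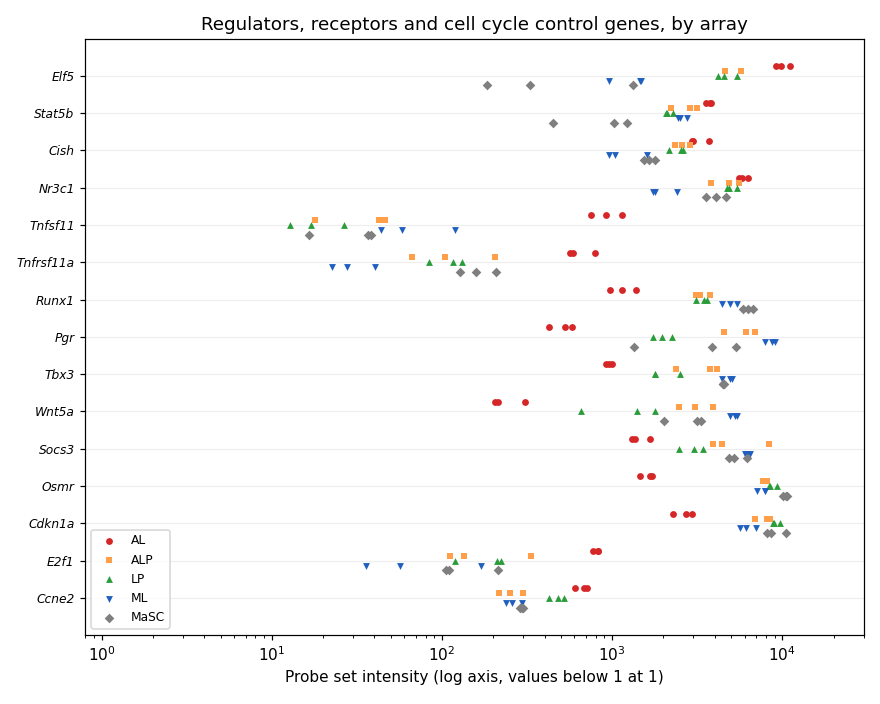
Intensity on each array (log axis) for 15 regulators, receptors and cell cycle genes, with 1 point per array and 1 symbol per population. Genes such as Tnfsf11 (754 to 1145 in AL against at most 119) lie right of all virgin points, and Runx1 (967 to 1388 against at least 3093), Pgr and Osmr lie left of them.

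Of 31 Wnt pathway genes, 9 were higher (29%) and 9 lower (29%), with 3 above (9.68%) and 5 below (16.1%). These shares lie near those over all genes tested (26.4%, 25.8%, 12.9% and 10.8%), so the members are described singly. Rspo1, a secreted enhancer of Wnt signals, was at 4866, 5019 and 4858 in ALs against 14.2 to 402. Wnt6 (1.75 ± 0.32) and Wnt3a (1.5 ± 0.31) were above. Wnt3a passed the filter on dim values only with the help of its AL arrays. Of the other 30 Wnt genes, 8 were higher (26.7%) and 2 above (6.67%). Wnt7b was at 33.4 to 64.6 in ALs against 173 to 1885, with its other probe set overlapping (-1.11), and Wnt11, Wnt5a, the receptor Fzd4 (-2.67 ± 0.26) and Lrp5 were below. Of 12 ErbB receptors and ligands, none was higher and 7 were lower, with the ligands Tgfa (381 to 650.0 in ALs against 1144 to 2951), Nrg4 and Epgn below. Of 28 TGF-beta and BMP genes, 3 were higher and 13 lower. Bmp2 (1469 to 2434 against 60.4 to 1361) and Tgfb3 were above, and Smad1, Smad3, Smad5 and Bmpr2 were below. Another Smad3 probe set overlapped (-0.12), and of 2 others of Smad5, 1 was below (-0.64) and 1 overlapped in the other direction (0.58). With median-centred arrays, 2 genes of the list were below in place of 4. Of 19 Notch genes, 4 were higher (21.1%) and 6 lower (31.6%), near the shares over all genes. Numb, an inhibitor of the Notch pathway, was at 1705 to 1994 against 3099 to 5809. Rbpj, the transcription factor of the pathway, was at 2666 to 2921 against 4104 to 7677 by the brightest probe set. Both others overlapped, with differences of -0.04 and 0.03. Of 17 luminal progenitor genes, 6 were higher and 6 lower (35.3% each), beside 26.4% and 25.8% over all genes. Elf5, Lbp and Rspo1 were above and Cxcl1 below. Itgb3, the CD61 gene used to sort LPs, was at 407 to 539 in ALs, 2794 to 3343 in LPs and 95.5 to 144.6 in MLs.

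Of 26 survival and involution genes, 4 were higher and 14 lower, and Timp1, Mmp14, Il6st and Osmr were below. Osmr, the oncostatin M receptor, was at 1666, 1449 and 1711 in ALs against 7058 to 10648 (-2.42 ± 0.07; limma adjusted p = 2.09e-09). Of 30 immediate early and heat shock genes, 9 were higher and 4 lower, with Hsph1 and Hspa8 above and Socs3 below. Of 20 interferon response and class I presentation genes, 8 were higher and 2 lower, with Ddx58 above and Usp18 below. The other Ddx58 probe set overlapped (-0.12).

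Innate defence and transport genes moved in both directions. Of 19 innate defence genes, 6 were higher (31.6%) and 7 lower (36.8%), beside 26.4% and 25.8% over all genes, so the members are described singly. Pigr, the receptor that carries IgA into milk, was at 2530, 3033 and 1900 in ALs against 58.5 to 445, and Lbp was above at 3796 to 5870.5 against 50.6 to 3052. The chemokine gene Cxcl15 was at 109, 155 and 143 in ALs against 1154 to 10822, and Cxcl1, Cxcl2 and Cxcl5 were also below. Wfdc2 was at 662 to 1078 against 4966 to 13512. Of 25 calcium, ion and water transport genes, 5 were higher (20%) and 11 lower (44%). Slc34a2, a phosphate transporter, and Car6, a secreted carbonic anhydrase (525, 1243 and 582 against 12.9 to 112), were above with Slc20a1. Car6 passed the filter on dim values only with the help of its AL arrays. Of the other 24 transport genes, 4 were higher (16.7%) and 2 above (8.33%). The iodide transporter Slc5a5 (135 to 277 against 390 to 9343), the water channel Aqp3 (1239 to 1463 against 3642 to 6634), the sodium channel subunit Scnn1a and the calcium sensor Stim1 were below.

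Genes of cell contacts moved both ways. Of the gap junction genes, Gjb6 (connexin 30) was at 2860, 3463 and 2486 in ALs against 5.92 to 159, and Gjb2 (connexin 26) was at 9595 to 9724 against 628 to 5693. Gjb5 (-2.33) and Gja1 (-0.21) were lower and overlapped. Dsp, which encodes the desmosomal protein desmoplakin, was at 2285, 2503 and 2993 against 8549 to 11222 (-1.94 ± 0.08; limma adjusted p = 3.65e-08), and the desmosome genes Jup, Pkp1 and Pkp3 were also below. In all, 2 of the 14 genes of this list were higher and 6 lower. Gjb6 passed the filter on dim values only with the help of its AL arrays. Of the other 13 genes, 1 was higher and 1 above. Of 19 tight junction and polarity genes, 5 were higher and 5 lower (26.3% each), beside 26.4% and 25.8% over all genes. Tjp3 (3742 to 4544 against 211 to 1954), Cgn and Cldn3 were above (15.8% beside 12.9%), and a second Cgn probe set overlapped (1.44). Of 22 Golgi glycosyltransferases and mannosidases, 4 were higher and 13 lower, with 7 below. St6gal1, a sialyltransferase, was at 3136 to 3908 against 61.6 to 1779, while the sialyltransferase St3gal1 was at 464 to 803 against 2057 to 4578.

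Further genes with the widest gaps lay outside the lists. Above all virgin arrays, Bcl2l15, a Bcl-2 family member, was at 5627 to 6362 against 21.4 to 224. Atp6v1c2, a subunit of the vacuolar proton pump, was at 6544 to 7617 against 20 to 539. Slc2a9, a urate transporter, was at 2400 to 2789 against 38.9 to 180, and Alox12e, a lipoxygenase, was at 2443 to 3364 against 38.7 to 180.0. Acbd7, Oit1 and Sapcd2 completed the 15 widest. Of the 15, Wap, Bcl2l15, Acbd7, Oit1, Gjb6, Sapcd2, Alox12e, Slc2a9, Csn2 and Thrsp passed the filter only through their AL arrays. The filter favoured a difference in such genes. The clone-named 1700012B07Rik, named after its values were seen, had a wider gap than any of the 15. It was at 2240, 3162 and 2443 in ALs against 7.64 to 26.5, and it too passed the filter only through its AL arrays. Below, Ido1, an enzyme of tryptophan breakdown, was at 30.1, 21.2 and 15.1 in ALs against 1300.4 to 14644 (-8.10 ± 0.43; limma adjusted p = 1.03e-07). Dmbt1, a secreted mucosal defence protein, was at 7.80, 6.71 and 14.4 against 654 to 13800. Both were highest in MLs, and the gaps between nearest arrays were 28.6-fold for Ido1 and 22-fold for Dmbt1 after 16 was added. Kif5c, a kinesin heavy chain, was at 49.9 to 57.7 against 770 to 7289, and Krt6a, a keratin, was at 20 to 49.9 against 575 to 6992. Camk2n1, an inhibitor of CaM kinase II, was at 225 to 303 against 2462 to 4357, with the virgin populations close together. Bnc1, a zinc finger protein, was at 17.8 to 31.1 in ALs, 247 to 960.2 in LPs, ALPs and MLs, and 5504 ± 694 (SD, n = 3) in MaSCs. Fam25c, Kcne3, Fgb, Trpc6, Papln, Ahnak2, Ctse and Sprr1a were the others of the 15, and a second Ctse probe set overlapped in the other direction (0.98).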

How the data were processed

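The authors deposited 1 normalised intensity per probe set and array, made with dChip from arrays hybridised with RNA amplified by the NuGEN Ovation V2 system. The dChip version, model and baseline array are not given in the sources that were used, and a common scaling of arrays can hide a change in total RNA. Groups came from the sample labels. Of 45101 probe sets, 64 were controls, 34945 had 1 gene symbol in the platform annotation, 932 had several and 9160 had none, and only those with 1 symbol were tested. Probe sets above the array median on at least 3 of 15 arrays were kept, and the brightest on average stood for its gene (12143 genes). Among the 2878 separated genes, 388 (13.5%) rest on probe sets whose names end in _s_at or _x_at, which can match several transcripts.

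Intensities below 1 were set to 1 and taken to log2. limma 3.58.1 (R 4.3.3) fitted 1 mean per population over 15 arrays, and ALs were set against the mean of the 4 virgin means, two-sided, with Benjamini-Hochberg adjustment and a threshold of 0.05. The scripts were tested on simulated data. Named were the 15 genes in each direction with the widest gap, leaving out clone-type names, the 3 widest in each direction of each of 39 gene lists, all tested members of 4 lists and the sort markers. Genes added beyond it were chosen after their values were seen. The rule, the members and the lists were chosen with earlier results of these data known. Only 3 arrays per population limit the precision.

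Alternatives changed array scaling, floor, filter, probe set choice, model, weights, replicate block and virgin populations, and left out each array in turn.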

Additional observations from a re-analysis of the deposited data

How the results depend on the processing

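The numbers of higher and lower genes (3201 and 3131) were within 1.5 times of these values under all alternatives except 1. With all 12 virgin arrays taken as 1 group with 1 mean, so that the spread held the differences between virgin populations, 1600 genes were higher and 1642 lower. Array weights gave 4321 and 4202. Leaving out each array in turn gave 2367 (without AL replicate 2) to 3551 (without ALP replicate 3) higher genes and 2476 (without AL replicate 3) to 3242 (without ALP replicate 3) lower genes. Genes above all virgin arrays then numbered 1561 to 1718 and genes below 1309 to 1542. Median-centred arrays gave 1376 above and 961 below, of which 1265 and 901 were among the 1569 and 1309, and quantile normalisation gave 1682 and 1160, sharing 1520 and 1124. Without ALPs there were 1832 and 1518, and without MaSCs 1882 and 1813. Replicate numbers did not clearly pair the samples. Of 9 same-numbered wild-type pairs, 1 had a correlation over 0.1. Of 12 same-numbered pairs with ALs, 3 did, over a range of -0.15 to 0.21. With the replicate block, 3078 genes were higher and 3034 lower, and of 196 named genes Csn3, Elf3 and Id1 no longer passed. With 1 virgin mean, 40 of the 196 no longer passed, Elf5, Stat5b, Cish, Nr3c1 and Muc15 among them. Averaging all probe sets of a gene turned Ghr to 0.13 and Grhl2 to -0.10 on the log2 scale, and the cause was not tested. In single lists, higher milk protein genes went from 15 to 7 and higher milk lipid genes from 22 to 13 with 1 virgin mean. Leaving out an AL array dropped 10 named genes from testing, since the filter needs 3 arrays.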

Other observations

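The families in this paragraph were picked after their values were seen, and their counts are descriptions with no test. Over all genes tested, 12.9% were above and 10.8% below. Mitochondrial ribosomal proteins, which translate the proteins encoded in mitochondria, had 31 of 76 tested genes above all virgin arrays and none below, with a median log2 difference of 0.36. By the limma test 52 of the 76 were higher and none was lower. With median-centred arrays 25 of them were above, and with quantile normalisation 34. Proteasome subunits and their assembly factors had 9 of 45 above and none below, with a median log2 difference of 0.11. Of 9 S100a genes, which encode small calcium-binding proteins, 6 were below all virgin arrays and none above: S100a4, S100a6, S100a10, S100a13, S100a14 and S100a16. Of 9 annexin genes, 4 were below (Anxa2, Anxa3, Anxa5 and Anxa8) and none above. Of 12 CXC chemokine genes, 6 were below (Cxcl1, Cxcl2, Cxcl3, Cxcl5, Cxcl15 and Cxcl17) and none above. By the limma test 6 of the 12 were lower and 1 was higher.

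Both short marker lists stood as follows. Of 4 adipocyte markers tested, 2 were higher, Fabp4 (3.50) and Pnpla2 (0.69), and Pnpla2 was above all virgin arrays. Of 2 erythroid markers tested, Hbb-b2 was higher (4.50) and overlapped virgin arrays.

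Probe sets without a gene symbol were not tested. Of 3105 that passed the filter on dim values, 188 were above all virgin arrays and 444 below. Of 601 probe sets with several symbols, 70 were above and 38 below. The 1 unnamed probe set with the widest gap above was at 1848, 1605 and 1764 in ALs and at 18.3 to 180.1 in virgin arrays.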
